A study of Mus musculus with 9 samples.

Results

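Ctla2a and Ctla2b, which encode small cysteine protease inhibitors, were followed together with 6 cathepsins and the cystatin Cst7 in transferred CD8+ T cells of mouse spleen. The 9 genes (Ctla2a, Ctla2b, Cst7, Ctsl, Ctsb, Ctsc, Ctsw, Ctss and Ctsd) were chosen by name, and Ctla2a and Ctla2b were chosen because their rise in 1 of the comparisons was already known. Each gene was read from the row of the array table that names it, and the table held 1 such row per gene. Of the 9 genes, 8 had a row of their own among the 30702 genes with such a row. The row of Ctsd also names Ifitm10, so its values belong to that shared row.

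Transcripts were measured on 9 whole-transcript arrays, 1 per mouse. The cells were pmel1 CD8+ T cells, which all carry a transgenic T cell receptor for gp100, an antigen made in melanocytes and melanomas. Every mouse, a naive congenic recipient, received 2000000 Thy1.1+ pmel1 cells and, intravenously, 100 µg of the human form of the peptide. The antibody dose summed to 400 µg in each mouse. The combination group (3 mice) had 200 µg of an agonist antibody to CD27 (AT124), 100 µg of antibody to PD-1 (RMP1-14) and 100 µg of antibody to PD-L1 (10F.9G2). The anti-CD27 group (3 mice) had the CD27 antibody at 200 µg, and the anti-PD-1/L1 group (3 mice) had the PD-1 and PD-L1 antibodies at 100 µg each, both with 200 µg of isotype control antibody. Spleen CD8+ cells were taken on day 4, enriched by removing other cells on magnetic beads and sorted for Thy1.1 and CD8. No group with peptide and isotype antibody alone was analysed here, so every comparison is between treatments, and the 3 comparisons share arrays. The age and sex of the mice were not given in the sources used here.

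Cathepsins are proteases of the lysosome, and most of those studied here cut with a cysteine in the active site. They are made as inactive precursors in which a propeptide covers the active site until it is removed. The CTLA-2 proteins of mouse resemble the propeptide of cathepsin L without its protease part, and they inhibit cathepsin L and related enzymes. They were first described in activated T cells. Cystatin F, encoded by Cst7, belongs to a separate family of inhibitors and acts inside the lysosomes and granules of cytotoxic cells, where cathepsin C also removes the blocking dipeptide of the granzymes.

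The 250 bases before an annotated transcript start of Ctla2a and of Ctla2b are shown because transcripts of these neighbouring genes differed together between the groups. They are RefSeq sequence of build GRCm38.p6, printed 5′ to 3′ on the coding strand, which is the minus strand for both, and lie at chr13:60936626-60936875 for Ctla2a and chr13:60897448-60897697 for Ctla2b. The RefSeq gene of Ctla2b reaches 487 bases further upstream of the start used, so its window lies inside the annotated gene, while that of Ctla2a lies before the gene. Capitals mark 2 short motifs, TGACTCA (a form of the AP-1 motif TGANTCA) and TGACGT (the core of the CRE motif).
Ctla2a: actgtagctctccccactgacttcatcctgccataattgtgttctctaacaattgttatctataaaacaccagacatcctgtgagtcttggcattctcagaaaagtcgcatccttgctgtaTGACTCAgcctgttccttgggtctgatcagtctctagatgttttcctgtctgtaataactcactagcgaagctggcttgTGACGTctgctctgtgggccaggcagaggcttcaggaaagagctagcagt
Ctla2b: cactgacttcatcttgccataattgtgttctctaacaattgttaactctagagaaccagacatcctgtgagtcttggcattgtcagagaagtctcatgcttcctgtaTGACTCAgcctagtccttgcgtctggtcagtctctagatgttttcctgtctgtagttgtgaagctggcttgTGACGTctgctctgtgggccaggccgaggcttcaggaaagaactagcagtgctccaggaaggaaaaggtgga

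In a global alignment of these windows with no penalty for gaps at the ends, 208 of 228 aligned bases were identical (91.2%). The other pairs among the 7 genes whose windows were at hand, aligned in the same way, had 52.7% to 63.8%. Ctsb and Ctsw were not among the 7. TGANTCA was found in 6.75% of 32851 RefSeq windows of the same length, searched on both strands, and TGACGT in 6.47%. Both motifs were in the windows of Ctla2a and Ctla2b and in none of the windows of Ctsl, Ctsc, Ctsd, Ctss and Cst7. The AP-1 match lay 129 to 123 bases before the start in Ctla2a and 143 to 137 bases before it in Ctla2b. The CRE core lay 50 to 45 and 72 to 67 bases before it. CACGTG, an E-box that is also part of the CLEAR element of lysosomal genes, was in 6.02% of windows. It was found at 1 place in the window of Ctsl (chr13:64370521-64370770, minus strand), whose gene reaches 252 bases upstream of the start used, and at 2 places in that of Ctsd. TTCNNNGAA, a STAT motif found in 7.02% of windows, was in those of Ctla2a and Ctsc (the gene of Ctsc reaches 61 bases into its window). GGTGTGA, a T-box motif (3.33% of windows), was in that of Ctsc, and TGTGGT, a RUNX motif (14% of windows), in that of Cst7. The window of Ctss held none of the 6 motifs searched. A match of letters is a description of the sequence, and binding was not measured.

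Levels are given on the log2 scale of the deposited values, so that a difference of 1 is a factor of 2. Each row has its own probes, so levels of different rows are not read as relative amounts of transcript. Ctla2a had log2 levels of 5.83, 5.97 and 6.37 on the anti-CD27 arrays, 8.31, 8.26 and 8.25 on the combination arrays, and 8.46, 8.19 and 8.34 on the anti-PD-1/L1 arrays. All 3 anti-CD27 arrays were below every other array, by at least 1.82, and the other groups overlapped. Of all genes, 20.5% did not overlap between the combination and anti-CD27 and 72.5% between anti-CD27 and anti-PD-1/L1. Group means were 6.06 ± 0.28 (SD, n = 3), 8.27 ± 0.04 and 8.33 ± 0.13. The combination was therefore 4.65-fold above anti-CD27, a log2 difference of 2.22 with a 95% interval of 1.92 to 2.51, and anti-PD-1/L1 was 4.84-fold above it. These differences are given as a description, without a test, because the gene was chosen for them.

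Ctla2b had levels of 4.41, 4.90 and 5.37 on the anti-CD27 arrays, 7.12, 7.17 and 7.07 in the combination, and 7.44, 7.10 and 7.56 in anti-PD-1/L1. The order was that of Ctla2a, with the 3 anti-CD27 arrays lowest and the other groups overlapping. The means were 4.89 ± 0.48, 7.12 ± 0.05 and 7.37 ± 0.24 (SD, n = 3). The combination lay 2.23 above anti-CD27 on the log2 scale (95% interval 1.74 to 2.72, 4.69-fold), and anti-PD-1/L1 lay 5.57-fold above it. Within each array, the log2 value of Ctla2a minus that of Ctla2b was between 0.78 and 1.42, which is an offset between rows and not a ratio of transcripts. The genes are close relatives, and how far each row also reads the transcript of the other was not tested.

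Between the combination and anti-PD-1/L1, which differ by the CD27 antibody, the Ctla2 genes had differences of -0.06 ± 0.13 (log2 difference ± SE, 95% interval -0.35 to 0.24) for Ctla2a and -0.25 ± 0.22 (-0.74 to 0.25) for Ctla2b. Neither passed limma's moderated test with Benjamini-Hochberg adjustment over all genes (adjusted p = 0.691 and 0.319), and a decrease of up to 0.35 or 0.74 lies within the intervals. After quantile normalization of the deposited values the same differences were -0.40 (adjusted p = 0.0163) and -0.67 (adjusted p = 0.0181), so that both genes were then lower in the combination, as were 29.8% of all genes.

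**Figure D1:**
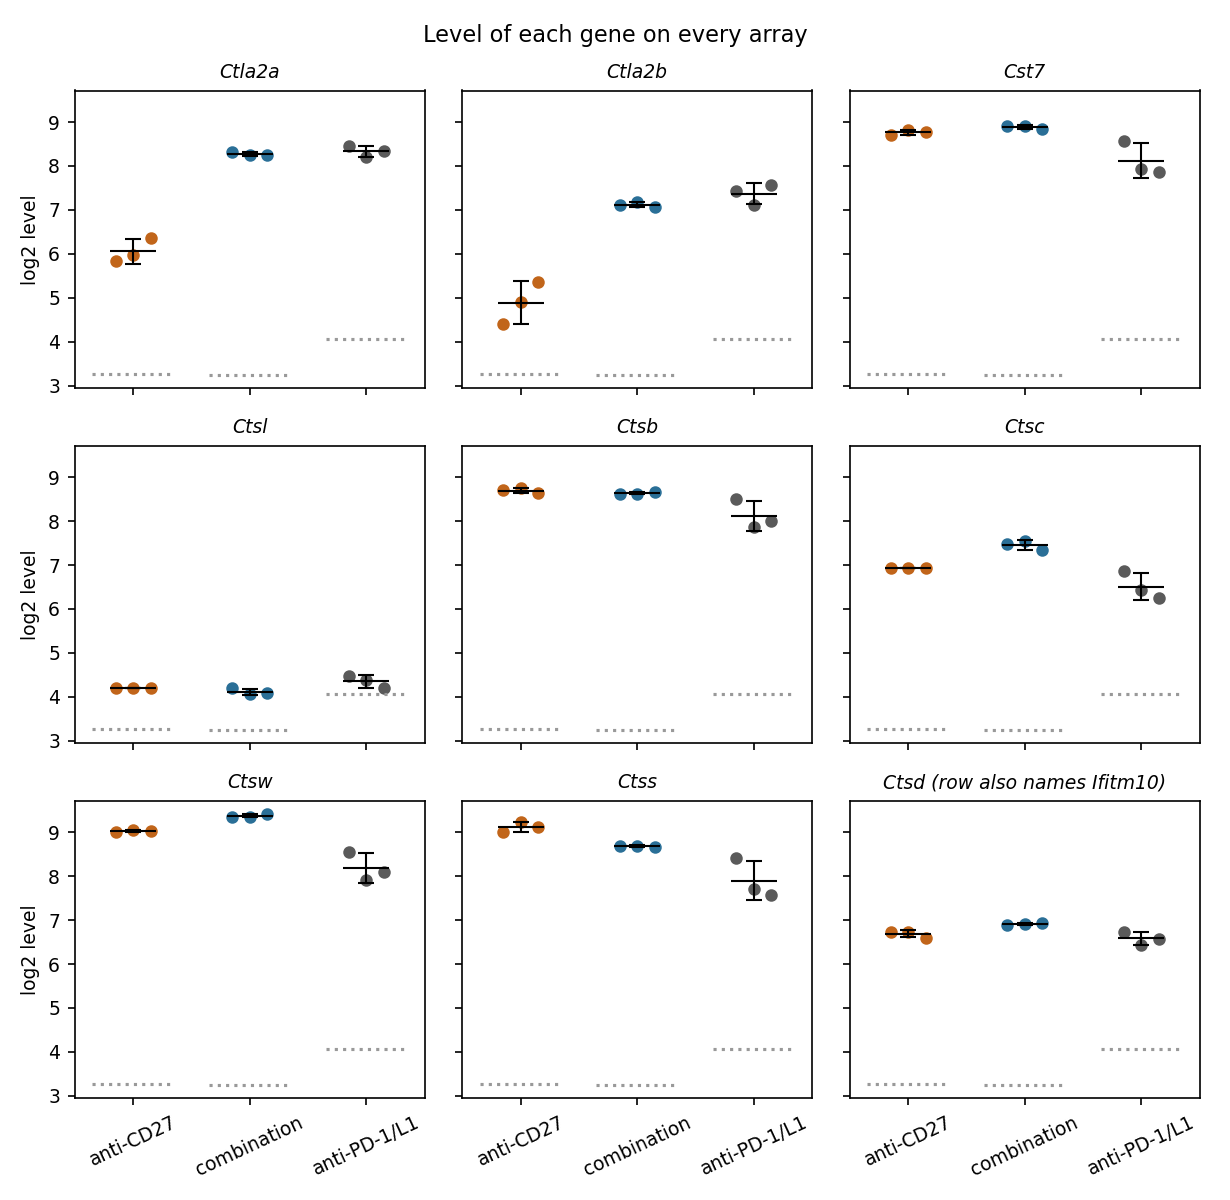
Log2 level of each of the 9 genes on every array (1 point per mouse) in the combination, anti-CD27 and anti-PD-1/L1 groups, with the group mean as a line. Ctla2a and Ctla2b are low on the 3 anti-CD27 arrays alone, while Cst7, Ctsb, Ctsc, Ctsw and Ctss are lowest on the anti-PD-1/L1 arrays.

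The arrays of anti-PD-1/L1 stood apart from the other 6 across the whole table. Their 23 background control rows averaged 4.06 ± 0.08 (SD, n = 3), and those of anti-CD27 averaged 3.27 ± 0.06 and of the combination 3.25 ± 0.04. Their 1324 positive control rows were at 5.75 ± 0.19, against 6.70 ± 0.02 and 6.81 ± 0.04. The T cell markers were present in all groups, with all 7 measured of 8 listed above background (here, a group mean at least 1 log2 unit above that of the background rows), but the mean of that list was 8.79 to 9.34 on the anti-PD-1/L1 arrays, 10.03 to 10.05 on the anti-CD27 arrays and 9.86 to 9.99 on the combination arrays. Of 30702 genes tested, 72.3% were called at an adjusted p under 0.05 between the combination and anti-PD-1/L1 and 70.8% between anti-CD27 and anti-PD-1/L1, against 1.8% between the combination and anti-CD27. The part of these array differences in any difference from anti-PD-1/L1 was not tested.

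Markers of the other cell types that a spleen sort could hold were mostly at background. Of 13 macrophage and monocyte genes, 3 were above background in the combination and 1 in each of the other groups. The mean of the list was 3.13 to 3.26 in anti-CD27, 3.24 to 3.30 in the combination and 3.46 to 3.53 in anti-PD-1/L1. The group means of Lyz2, Csf1r, Adgre1 and Mpeg1 were at or below that of the background rows in every group. Those of C1qa, C1qb and C1qc were above that of the background rows in every group, by less than 1 log2 unit. Within anti-CD27, replicate 1 was above replicates 2 and 3 for Lyz2 (3.48 against 2.19 and 2.54) and Mpeg1 (2.26 against 1.84 and 1.81). No such difference was seen for Csf1r or Adgre1. Cd68, a lysosomal glycoprotein abundant in macrophages, was above background in every group, at 5.55 ± 0.13 (SD, n = 3) in anti-CD27, 5.90 ± 0.12 in the combination and 5.13 ± 0.23 in anti-PD-1/L1, and the combination differed from anti-CD27 by 0.36 ± 0.12 (adjusted p = 0.301). Hmox1, which encodes heme oxygenase 1, was above it in the combination at 4.40 ± 0.11, with 3.98 ± 0.06 in anti-CD27 (adjusted p = 0.387). The part of such cells in the levels of the cathepsins was not tested. No measured marker of neutrophils (6), NK cells (3) or the erythroid lineage (2) was above it in any group. Of 8 dendritic cell genes 1 was above background in the combination and 1 in anti-CD27, with 0 in the remaining group, of 5 B cell genes 1 in each group, and of 4 platelet genes 3, 3 and 2 in the same order. Itgam, an integrin chain of myeloid cells that activated T cells also carry, was higher in the combination than in anti-CD27 by 0.61 ± 0.05 (adjusted p = 0.00102). In sorted bulk cells, a change in the make-up of the cells and a change of transcript within each cell cannot be told apart.

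Cst7 did not share the pattern of the Ctla2 genes. Its levels were 8.72, 8.81 and 8.77 on the anti-CD27 arrays, 8.90, 8.92 and 8.84 on the combination arrays, and 8.57, 7.94 and 7.86 on the anti-PD-1/L1 arrays. The groups did not overlap, with anti-PD-1/L1 lowest and the combination highest. The means were 8.76 ± 0.05 (SD, n = 3), 8.89 ± 0.04 and 8.12 ± 0.39. The combination and anti-CD27 differed by 0.12 ± 0.16 (95% interval -0.24 to 0.49), which did not pass limma's test (adjusted p = 1). Both lay above anti-PD-1/L1, the combination by 0.77 ± 0.16 (adjusted p = 0.00258) and anti-CD27 by 0.64 ± 0.16 (adjusted p = 0.0068).

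Ctsl encodes cathepsin L, the protease whose propeptide the Ctla2 proteins resemble. It had the same level of 4.19 on all 3 anti-CD27 arrays, 4.19, 4.06 and 4.10 in the combination, and 4.48, 4.39 and 4.19 in anti-PD-1/L1. In no group was its mean (4.19, 4.12 and 4.35) a full log2 unit above the background rows, and 5 of its 9 values were equal. The groups overlapped in every comparison. The combination differed from anti-CD27 by -0.08 ± 0.08 (95% interval -0.25 to 0.10, adjusted p = 1), and a change of cathepsin L transcript was not detectable so close to background. The difference of -0.24 ± 0.08 between the combination and anti-PD-1/L1 passed the test (adjusted p = 0.0204) but was 0.049 (adjusted p = 0.670) after quantile normalization. It also missed the threshold without anti-PD-1/L1 replicate 1 or 2 or combination replicate 2 or 3 (adjusted p up to 0.0708).

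Ctsb encodes cathepsin B, a broadly expressed lysosomal protease. It was at 8.70, 8.75 and 8.64 in anti-CD27, at 8.62, 8.62 and 8.67 in the combination, and at 8.50, 7.86 and 7.99 in anti-PD-1/L1. The combination and anti-CD27 arrays overlapped, and every anti-PD-1/L1 array was below them. The difference between the combination and anti-CD27 was -0.06 ± 0.14 (95% interval -0.38 to 0.27, adjusted p = 1).

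Ctsc encodes cathepsin C, which trims granzyme precursors to their active form. It read 6.93 on each of the 3 anti-CD27 arrays, 7.48, 7.54 and 7.34 in the combination, and 6.86, 6.43 and 6.24 in anti-PD-1/L1. No groups overlapped, and the combination was highest. Means were 6.93, 7.46 ± 0.10 (SD, n = 3) and 6.51 ± 0.32. The combination lay 0.52 ± 0.14 above anti-CD27 (1.44-fold, 95% interval 0.21 to 0.84), with an adjusted p of 0.135 in the fit to all 9 arrays and of 0.0113 in a fit to the 6 arrays compared.

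Ctsw encodes cathepsin W, a cathepsin found chiefly in cytotoxic T cells and NK cells. Its levels were 9.00, 9.06 and 9.02 in anti-CD27, 9.35, 9.35 and 9.41 in the combination, and 8.56, 7.91 and 8.09 in anti-PD-1/L1. The groups were again in separate ranges with the combination highest. The combination exceeded anti-CD27 by 0.34 ± 0.14 (95% interval 0.03 to 0.66), with an adjusted p of 0.444 over all arrays and of 0.0076 over the 6 arrays compared.

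Ctss encodes cathepsin S, best known for cutting the invariant chain in antigen-presenting cells. It was at 9.01, 9.23 and 9.13 in anti-CD27, 8.69, 8.69 and 8.66 in the combination, and 8.40, 7.71 and 7.57 in anti-PD-1/L1. The order differed from that of Ctsc and Ctsw, since anti-CD27 was highest, and no groups overlapped. The means were 9.12 ± 0.11 (SD, n = 3), 8.68 ± 0.02 and 7.90 ± 0.44. The combination minus anti-CD27 was -0.44 ± 0.19 on the log2 scale (95% interval -0.87 to -0.02), with an adjusted p of 0.466 over all arrays and of 0.0176 over the 6 arrays compared.

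The row of Ctsd, which encodes the aspartic protease cathepsin D, read 6.74, 6.74 and 6.60 in anti-CD27, 6.88, 6.91 and 6.93 in the combination, and 6.74, 6.44 and 6.58 in anti-PD-1/L1. The combination was above both other groups, which overlapped. In the fit that keeps rows naming several genes, its difference from anti-CD27 was 0.21 ± 0.08 (95% interval 0.04 to 0.39, adjusted p = 0.350), and from anti-PD-1/L1 0.32 ± 0.08 (adjusted p = 0.00581).

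Counted over the 6 genes that have a row of their own and are not Ctla2 genes (Cst7, Ctsl, Ctsb, Ctsc, Ctsw and Ctss), 0 passed limma's test between the combination and anti-CD27, where 1.8% of all genes passed (1.28% higher and 0.528% lower). Of the 6, 3 had an unadjusted p under 0.05, a threshold for which the share of all genes is not given here. Including the row of Ctsd, 5 of 7 did not overlap between these groups (all except Ctsl and Ctsb), against 20.5% of all genes. The median difference of the 7 was 0.12, against 0.00 for all genes. The fit to the 6 arrays compared, which leaves out the wider spread of the anti-PD-1/L1 arrays, called Ctsc and Ctsw higher and Ctss lower in the combination, where 5.38% of all genes passed (3.99% higher and 1.39% lower). The same 3 genes passed without replicate 1 of anti-PD-1/L1, with adjusted p of 0.0105 for Ctsc, 0.0184 for Ctsw and 0.0141 for Ctss. That fit also called more of all genes than any other fit with 1 array left out. When any other single array was left out, 0 of the 6 genes passed. Beside the 4.65-fold and 4.69-fold higher levels of the Ctla2 genes, the cathepsins thus differed by 1.44-fold or less and not all in 1 direction, which is given as a description.

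**Figure D2:**
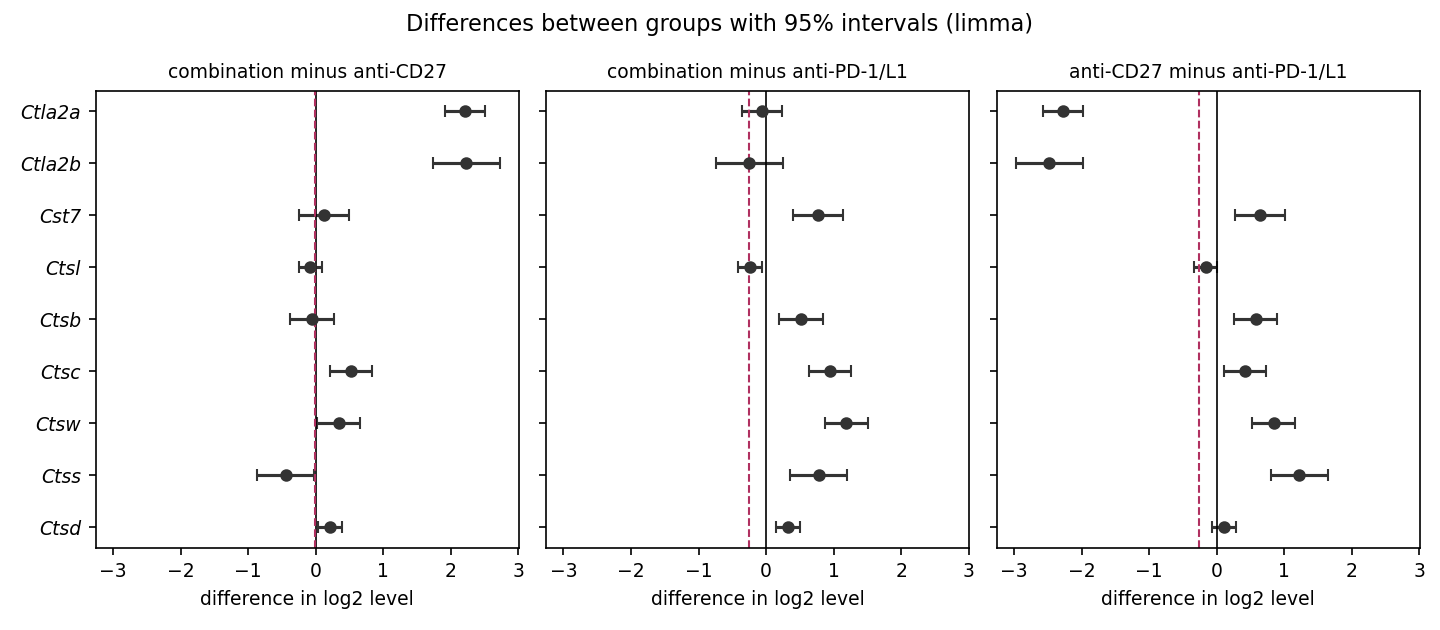
Differences in log2 level with 95% intervals from limma for the 9 genes, 1 panel per comparison (the panels share arrays). Ctla2a and Ctla2b lie near 2.2 for the combination minus anti-CD27 while the other 7 genes lie between -0.44 and 0.52, and for the combination minus anti-PD-1/L1 the Ctla2 intervals include 0 while 6 of the other 7 lie above it.

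Against anti-PD-1/L1, Cst7, Ctsb, Ctsc, Ctsw and Ctss were higher in both groups that had the CD27 antibody. In the combination, Ctsw was 1.19 ± 0.14 higher (2.28-fold, adjusted p = 9.09e-05), Ctsc 0.95 ± 0.14 (adjusted p = 0.000312), Ctss 0.78 ± 0.19 (adjusted p = 0.00476) and Ctsb 0.52 ± 0.14 (adjusted p = 0.0102). With Cst7 and the lower level of Ctsl, 6 of 6 genes passed, 5 as higher and 1 as lower, beside 72.3% of all genes (19% higher and 53.3% lower). With the row of Ctsd, 6 of 7 did not overlap and were higher, beside 73.5% of all genes that did not overlap and 18.9% that were also higher. In anti-CD27 alone, Ctss was 1.23 ± 0.19 higher (2.34-fold, adjusted p = 0.000412), Ctsw 0.85 ± 0.14 (adjusted p = 0.000679), Ctsb 0.58 ± 0.14 (adjusted p = 0.00618) and Ctsc 0.42 ± 0.14 (adjusted p = 0.0227). Here 5 of 6 genes passed, all as higher, beside 70.8% of all genes (17.1% higher and 53.7% lower), and 5 of 7 did not overlap and were higher, beside 17.5% of all genes. Ctsl did not pass (-0.16 ± 0.08, adjusted p = 0.0857). The row of Ctsd had a difference of 0.11 ± 0.08 (adjusted p = 0.248). The call of Ctsc in anti-CD27 was the least firm of these 5, at 0.04 (adjusted p = 0.772) after quantile normalization and above the threshold without anti-PD-1/L1 replicate 2 or 3 or any anti-CD27 replicate (adjusted p up to 0.0696). That of Ctsb in the combination was at 0.20 (adjusted p = 0.117) after quantile normalization.

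The median difference of the 7 genes was 0.77 for the combination and 0.58 for anti-CD27, each minus anti-PD-1/L1. The medians of all genes were -0.26 for both (-0.05 and -0.06 after quantile normalization). A higher median was not particular to the 7 genes, since that of the 7 measured T cell markers was 0.98 and 1.03 in the same order. The 8 aspartic and serine cathepsins and other lysosomal peptidases had medians of 0.55 and 0.52. Lists with medians below 0 included the other cysteine cathepsins and legumain, at -0.48 and -0.47. Of its 6 genes, only 2 were above background in the groups given the CD27 antibody. Both were higher there than on the anti-PD-1/L1 arrays. These medians thus rest mostly on rows not above background and are not read as less transcript. Of the 3 anti-PD-1/L1 arrays, replicate 1 was the highest for Cst7, Ctsb, Ctsc, Ctsw, Ctss and the row of Ctsd. Limma's test was also run with the mean of the positive control rows as a covariate. Between the combination and anti-PD-1/L1, 0 of the 6 genes then passed, beside 6.26% of all genes. Between anti-CD27 and anti-PD-1/L1, 2 passed, beside 7.89%. In the former comparison 5 of the 6 had an unadjusted p under 0.05, a threshold for which the share of all genes is not given here. Cst7, Ctsb, Ctsc, Ctsw and Ctss then changed sign in both comparisons. That covariate itself separates the anti-PD-1/L1 arrays from the other 6.

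On single arrays, the level of Ctla2a relative to that of each cathepsin, given as a log2 ratio minus its mean in anti-CD27, was between -0.27 and 0.40 on the anti-CD27 arrays for all 6 cathepsins. In the combination the mean of this relative value was 2.29 for Ctsl (a row too close to background for its ratios to be read as more than the change of Ctla2a), 2.27 for Ctsb, 1.69 for Ctsc, 1.87 for Ctsw, 2.66 for Ctss and 2.00 for Ctsd. It was lowest for Ctsc and highest for Ctss, which is 3.23-fold and 6.32-fold over anti-CD27. In anti-PD-1/L1 it was 2.11 for Ctsl, 2.85 for Ctsb, 2.70 for Ctsc, 3.12 for Ctsw, 3.50 for Ctss and 2.38 for Ctsd. Ctla2a itself overlapped between these groups. The larger values in anti-PD-1/L1, for all but Ctsl, thus go with the lower cathepsin levels on those arrays. How far they reflect the array differences described above was not tested. In both groups every array lay above all anti-CD27 arrays for every cathepsin, a direction set by the choice of Ctla2a. Transcript ratios say nothing of the amounts of the proteins.

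For Cst7 the same relative values lay closer to 0, and their differences between cathepsins are those of the cathepsins themselves. Cst7 over Ctss was 0.57 in the combination (0.55 to 0.59) and 0.58 in anti-PD-1/L1 (0.53 to 0.64). Relative to Ctsc, the protease that cystatin F is best known to inhibit, Cst7 was at -0.40 in the combination and -0.22 in anti-PD-1/L1. Relative to Ctsw it was at -0.22 and 0.20, and relative to Ctsb at 0.18 and -0.07. Relative to the row of Ctsd it was at -0.09 and -0.54, and relative to the dim row of Ctsl at 0.20 and -0.80. The sign thus differed between the cathepsins.

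**Figure D3:**
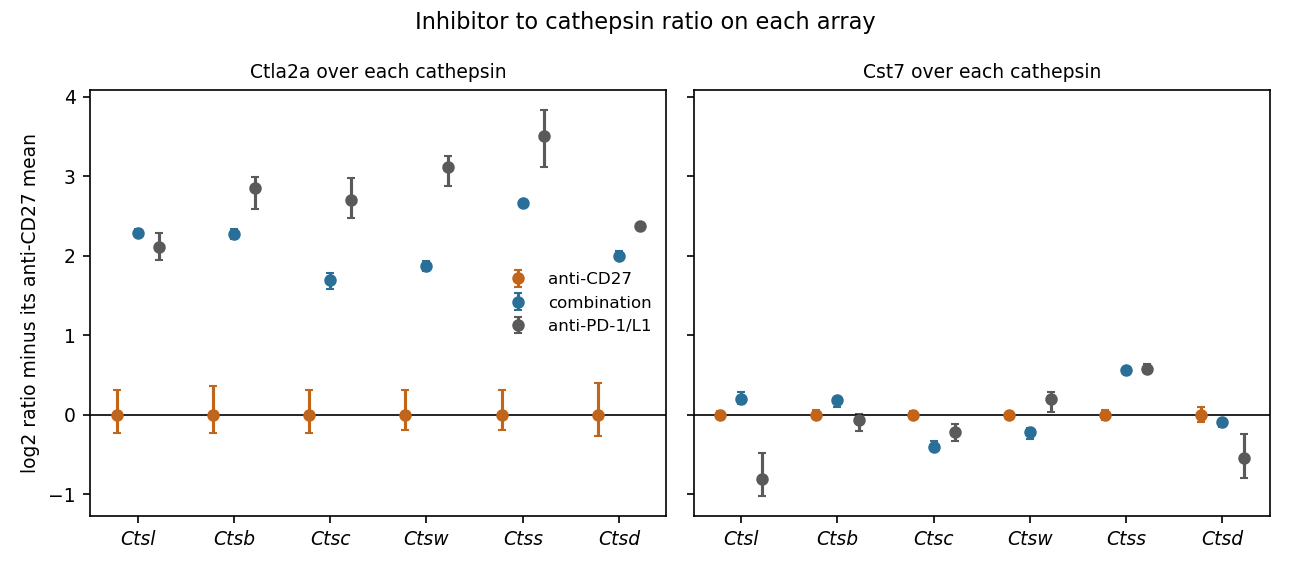
Log2 ratio of Ctla2a (left) and Cst7 (right) to each of 6 cathepsins, minus the mean of that ratio on the anti-CD27 arrays. Points are means of 3 arrays and bars run from the lowest to the highest array. For Ctla2a the combination means are between 1.69 and 2.66 and those of anti-PD-1/L1 between 2.11 and 3.50, while for Cst7 all means lie between -0.80 and 0.58. The limits of 2.11 and -0.80 are ratios to Ctsl, whose row is less than 1 log2 unit above background. The anti-PD-1/L1 arrays also differ from the others in their control rows, and the part of this in the ratios was not tested.

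In the RefSeq gene order of mouse chromosome 13, Ctla2b and Ctla2a are separated by 1 protein-coding gene, Tpbpb, and the placental cathepsin genes Ctsj, Ctsq, Ctsr, Cts6, Cts8, Cts7 and Ctsm follow. Ctsl lies 33 protein-coding genes beyond Ctla2a. Tpbpb had group means of 2.22 in anti-CD27, 2.19 in the combination and 2.53 in anti-PD-1/L1, all below the background rows. The neighbour 4930486L24Rik, named after its values were seen, was at 3.42 ± 0.06, 3.81 ± 0.12 and 3.64 in that order, within 1 log2 unit of background or below it. It was higher in the combination than in anti-CD27 by 0.39 ± 0.07 (adjusted p = 0.0274). None of the 8 placental cathepsins of the list, Cts3 included, was above background in any group. Between the combination and anti-CD27, 0 passed limma's test, beside 1.8% of all genes (0 of the 8 at an unadjusted p under 0.05).

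**Figure D4:**
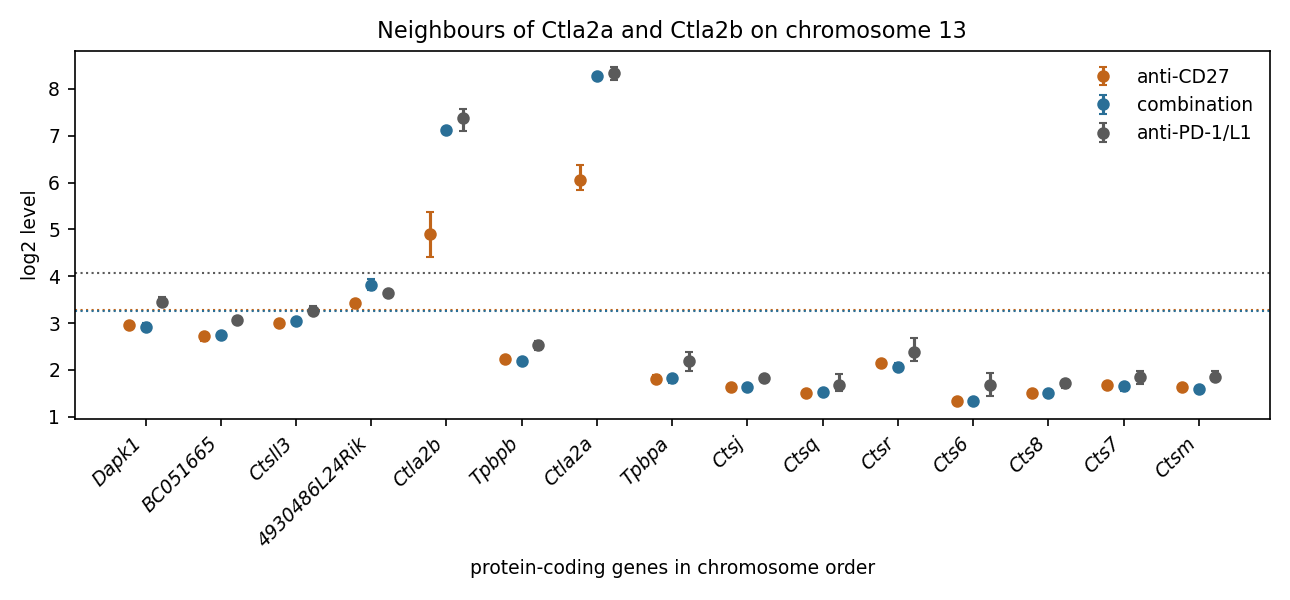
Mean log2 level (points, with bars from the lowest to the highest array) of the protein-coding genes around Ctla2a and Ctla2b in chromosome order, in 3 groups of 3 arrays. The means of Ctla2b and Ctla2a are over 1 log2 unit above the background rows in every group, and no other gene shown has such a mean in any group.

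Among the other cysteine cathepsins and legumain, 0 of 6 passed limma's test between the combination and anti-CD27, beside 1.8% of all genes, and 0 had an unadjusted p under 0.05. Ctsz, which encodes the carboxypeptidase cathepsin Z, was at 6.86 ± 0.05 and 6.73 ± 0.03 (difference 0.14 ± 0.13). Of 8 aspartic and serine cathepsins and other lysosomal peptidases 0 passed (1 at an unadjusted p under 0.05), and the smallest p was that of Scpep1, a serine carboxypeptidase, with a difference of 0.59 ± 0.13 (adjusted p = 0.0769). At a share of 1.8%, 0 calls in lists this small do not show that these genes were unchanged. The medians of these lists were -0.04 and -0.03, close to that of all genes.

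A list of cystatins, stefins and other protease inhibitors, among them the serpins Serpinb6a and Serpinb6b, had 20 measured genes. Of these, 1 passed and was higher in the combination than in anti-CD27, beside 1.28% of all genes that were higher and 0.528% that were lower. This was Serpinb6b, which is not a cystatin or stefin but a serpin, of the family that guards cells against their own proteases. It had levels of 6.62, 6.72 and 6.83 in anti-CD27, 7.40, 7.41 and 7.38 in the combination, and 7.27, 6.80 and 7.06 in anti-PD-1/L1. The anti-CD27 and anti-PD-1/L1 arrays overlapped, and the combination was above both. The difference of 0.67 ± 0.11 from anti-CD27 had an adjusted p of 0.0194, which no longer passed when anti-CD27 replicate 1 or 2, or any replicate of the combination, was left out (up to 0.105). Cstb, the cytosolic inhibitor stefin B, had means of 7.82 and 7.78 in these groups, a difference of 0.04 ± 0.05.

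Of 5 granule serine proteases, the kind of enzyme that cathepsin C activates, 3 were higher in the combination than in anti-CD27 and 0 lower, beside 1.28% and 0.528% of all genes, and the median difference was 2.06. Like the other lists, this one was chosen with earlier results of these data known, so its counts and p-values are a description. Gzmb (granzyme B) was at 3.65, 3.70 and 4.44 in anti-CD27, 8.44, 8.57 and 9.02 in the combination, and 6.49, 5.40 and 7.05 in anti-PD-1/L1. The groups were in separate ranges with anti-PD-1/L1 in the middle, unlike the Ctla2 genes. The difference was 4.75 ± 0.39 (adjusted p = 0.00129), from an anti-CD27 level less than 1 log2 unit above background. Gzma (granzyme A) was higher by 2.78 ± 0.24 (adjusted p = 0.00137), at 7.61 ± 0.15 against 4.83 ± 0.09. Gzmk (granzyme K) was higher by 2.06 ± 0.32 (adjusted p = 0.016), from an anti-CD27 level of 3.96 that was also less than 1 log2 unit above background, a call that did not hold when anti-CD27 replicate 1 or 2 or combination replicate 2 was left out (up to 0.0867).

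Of 19 measured genes of the lysosome membrane and of sorting to it, 2 were higher in the combination than in anti-CD27 and 0 lower, beside 1.28% and 0.528% of all genes, and the median was 0.00. Igf2r, the large mannose 6-phosphate receptor that carries newly made lysosomal enzymes, was higher by 0.64 ± 0.05 (adjusted p = 0.00102). Gnptab, which encodes the enzyme that starts the mannose 6-phosphate tag, was higher by 0.74 ± 0.10 (adjusted p = 0.00991), a call that did not hold when the same arrays were left out in turn (up to 0.0577). In the combination against anti-PD-1/L1, 9 genes of this list passed as higher and 5 as lower, beside 19% and 53.3% of all genes, and with anti-CD27 in place of the combination the counts were 9 and 5, beside 17.1% and 53.7%. For the inhibitors these counts were 1 and 14, and 0 and 14, but only 4 of the 20 were above background in each group. The mean of that list was 2.76 in the combination, 2.73 with the CD27 antibody alone and 3.03 on the anti-PD-1/L1 arrays. Each lay below the mean of the background rows (3.25, 3.27 and 4.06). The lower calls thus include rows not above background and are not read as less transcript. For the granule proteases the counts were 2 and 0, and 0 and 5. For the other cysteine cathepsins and legumain they were 2 and 4 in both. Of these 6 genes, 2 were above background in each group given the CD27 antibody and 1 in the remaining group.

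The genes whose levels over the 9 arrays were most like those of Ctla2a, by Pearson correlation among 11514 named genes in the upper 50% of mean level, were Ctla2b (0.991), Klrd1 (0.981), S100a6 (0.963), Dapk2 (0.961) and Rras2 (0.950). These correlations share the 3 groups and are a description. Klrd1, which encodes the CD94 chain of NK cell receptors that T cells also use, was at 7.84 ± 0.13 in anti-CD27, 8.63 ± 0.13 in the combination and 8.61 ± 0.09 in anti-PD-1/L1. S100a6, a calcium-binding protein, was at 8.69, 9.30 and 9.38 in the same order. After quantile normalization 3 of the 5 were again among the 5 most like Ctla2a. For Ctsl the most alike were Rps15a-ps3 (0.981), Rps15a-ps7 (0.976), Csrp3 (0.964), H2-M3 (0.959) and Pigbos1 (0.957), of which 1 was kept after quantile normalization. None of the genes most like Ctsl was among those most like Ctla2a.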

How the data were processed

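RNA of sorted cells was biotin-labelled and hybridised to 9 whole-transcript arrays. The authors deposited log2 values, 1 for each array and row (probe set). Per the submitters' processing notes, RMA and the package oligo 1.38.0 were used. RMA subtracts background, normalizes across arrays and summarises probes. Replicates were not pooled. The genome build of the probe sets is not given in the sources used here. Of 72688 rows, 6732 were controls, 31258 named 1 gene, 1492 several and 33206 none. For genes with several rows the row of highest mean was kept, giving 30702 genes, with no filter on low values.

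Differences were fitted with limma 3.58.1 in R 4.3.3 (lmFit and eBayes, 1 mean per group, 9 arrays, 6 residual degrees of freedom, two-sided), with p-values adjusted by Benjamini-Hochberg over the 30702 genes and called under 0.05. The script was tested on simulated data. Only 3 arrays per group limit the precision. An exact permutation test of 3 against 3 arrays cannot go below 0.1 and was not used. Alternatives were quantile normalization, dropping the lower 50% of genes, only the 6 arrays compared, leaving out each array, the replicate number as a block, array weights, rows naming several genes, the mean of a gene's rows and the positive controls as a covariate. All 9 genes are named, and up to 3 of each related list by adjusted p, with Cstb, S100a6, 4930486L24Rik and Klrd1 described in addition after their values were seen. The genes and lists were chosen with earlier results of these data known.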

Additional observations from a re-analysis of the deposited data

How the results depend on the processing

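Alternatives were computed for 8 genes (those with a row of their own) in 3 comparisons, and for Gzma, Gzmb, Gzmc, Gzmk, Gzmm, Serpinb6b, Igf2r, Gnptab and Itgam in the combination minus anti-CD27. Of 560 values, 503 stayed on their side of the threshold, though some that passed in neither setting changed sign. A further 19 passed in addition, 27 no longer passed, and 11 changed sign with a call in at least 1 of the settings. The 560 values include the differences from anti-CD27 for which the Ctla2 genes were chosen, and list genes named for a small adjusted p. For these, staying on 1 side was favoured by the choice, so the count of 503 does not measure robustness. The other named genes were not recomputed singly. Genes called between the combination and anti-CD27 numbered 554, but 1653 with only the 6 arrays compared, 2517 with array weights and 174 to 1226 when 1 array was left out (lowest without replicate 1 of anti-CD27, highest without replicate 1 of anti-PD-1/L1). Of the 6 genes described tested, 0 passed, but 3 with the 6 arrays, 3 with array weights, 2 with the positive control covariate and 0 to 3 when 1 array was left out. Without the lower 50% of genes, 11892 genes passed between the combination and anti-PD-1/L1 and 11432 between anti-CD27 and anti-PD-1/L1. With the positive control covariate these counts were 1921 and 2422, and 0 and 2 of the genes described passed. Under that covariate the differences of the combination from anti-PD-1/L1 were -1.04 for Ctsb, -0.87 for Ctsc, -0.27 for Ctsw, -1.53 for Ctss and -1.31 for Cst7. Those of anti-CD27 were -0.83 for Ctsb, -1.21 for Ctsc, -0.47 for Ctsw, -0.86 for Ctss and -1.23 for Cst7. With the same covariate limma's adjusted p between anti-CD27 and anti-PD-1/L1 was 0.185 for Ctla2b and 0.0374 for Ctla2a. Both genes were chosen for a difference from these anti-CD27 arrays, so neither value is read as a test. Ctsl turned to 0.049 (combination minus anti-PD-1/L1) with quantile normalization. The cause was not tested. Quantile normalization changed the split of higher and lower genes from 5839 and 16368 to 7150 and 9140 (combination minus anti-PD-1/L1), and from 5265 and 16472 to 6512 and 9408 (anti-CD27 minus anti-PD-1/L1). Over all genes, same-numbered arrays did not deviate together (correlations from -0.20 to 0.16). A shared part of the replicate number in single genes was not tested. Gzma, Gzmb, Gzmk and Gzmm were highest on replicate 3 in every group, and Gzmc was so only in the combination. With the replicate block, 377, 21710 and 21113 genes passed in the comparisons of the combination with anti-CD27 and with anti-PD-1/L1 and of these last groups with each other, with 0, 6 and 5 of the genes described. Levels close to the background rows, as for Ctsl and the placental cathepsins, limit what differences could be seen.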
